A study of Mus musculus with 2 samples.

Results

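The genes described here are 10 regulators and markers of the cell cycle, *Ccna2*, *Ccnb1*, *Ccnd1*, *Ccnd2*, *Ccne1*, *Cdk1*, *Cdkn1a*, *Cdkn1c*, *E2f1* and *Mki67*, out of 37310 genes in the annotation. They were chosen by name and placed on the mouse genome (build mm9) with GENCODE release M1. All 10 had at least 10 reads over both libraries together, as did 14859 genes in all. Sense reads overlapping the exons of each gene were counted, and the counts were read beside the total of the replication-dependent histone genes. The genes are protein-coding and lie, in mm9, at chr3:36463788-36471072 (*Ccna2*), chr13:101548605-101556525 (*Ccnb1*), chr7:152115836-152125774 (*Ccnd1*), chr6:127075797-127101066 (*Ccnd2*), chr7:38883003-38892553 (*Ccne1*), chr10:68799383-68815686 (*Cdk1*), chr17:29227924-29237667 (*Cdkn1a*), chr7:150644255-150646955 (*Cdkn1c*), chr2:154385143-154395628 (*E2f1*) and chr7:142881471-142908062 (*Mki67*), all on the minus strand except *Cdkn1a*.

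The study sequenced non-polyadenylated (NPA) RNA, with 1 library from mouse embryonic stem cells (ESCs) and 1 from neuronal progenitor cells (NPCs) derived from them. The ESCs were of the male line R1, at passage 18, grown with leukemia inhibitory factor on a feeder layer of mouse embryonic fibroblasts that had been stopped with mitomycin C. The NPCs came from the same line, which was kept without the factor as embryoid bodies for 4 days, replated on poly-L-ornithine and fibronectin in a medium with insulin, transferrin and selenium, and gathered on day 7. Poly(A) RNA was removed from both with oligo(dT) beads, so the libraries measure what was left after that removal, and no replicate is present: every ratio compares these libraries, and every interval covers counting error only.

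The deposited reads totalled 4271306 in ESCs and 4399729 in NPCs, so a single read was worth 0.234 and 0.227 RPM (reads per 1000000 reads of the library). The middle of the 14859 genes had a log2 ratio of 0.34, a 1.26-fold higher RPM in NPCs, and values relative to this median gene are given beside the unadjusted ones. The neural progenitor list, 10 matched genes, summed to 1117 reads in ESCs and 1116 in NPCs, and 5 of them had at least 10 reads over both libraries, with a median log2 ratio of 0.55. *Vim* was counted in 469 and 706 reads and *Nes* in 66 and 121, both higher in NPCs within 2-fold, while *Notch1* was counted in 481 and 203 and *Msi1* in 99 and 60. The neural transcription factors were at low counts in both libraries, with 1 read of *Pax6* in ESCs and 12 in NPCs. *Sox3* had 0 and 5 reads, *Neurog2* 0 and 3, *Fabp7* 0 and 2, and *Hes5* 1 and 2. Of the 5 genes with at least 10 reads, *Pax6* was more than 2-fold higher in NPCs and *Notch1* more than 2-fold lower. All 12 genes of an extraembryonic endoderm list were more than 2-fold higher in NPCs, as were 24.6% of all genes with at least 10 reads. They summed to 671 RPM in ESCs and 13117 in NPCs, from *Sparc* at 1151 and 13828 reads to *Afp* at 1 and 141. The marker lists were chosen with earlier results of these data known, so these counts are not independent of those results. In the pluripotency list 9 of 11 genes were more than 2-fold lower in NPCs, against 12.8% of all genes. Among them were *Tdgf1* at 1061 and 149 reads and *Dppa5a* at 1100 and 245, while *Klf4*, at 226 and 206, lay within 2-fold. Fibroblast genes, which feeder cells express, summed to 284 reads in ESCs and 278 in NPCs over 10 genes, and of 6 with at least 10 reads *Thy1* (79 and 12) and *Pdgfrb* (93 and 21) were more than 2-fold lower in NPCs and *Col1a2* (51 and 165) more than 2-fold higher.

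The cell cycle is driven by cyclin-dependent kinases (CDKs), which act only while bound to a cyclin. D-type cyclins and then cyclin E carry cells through G1, the E2F factors switch on the genes of S phase once the retinoblastoma proteins are phosphorylated, cyclin A acts in S phase and G2, and cyclin B with Cdk1 starts mitosis. Inhibitors of the Cip/Kip family, such as those made from *Cdkn1a* and *Cdkn1c*, bind and block these complexes. ESCs are known for a short G1 phase and for a high share of cells in S phase. Replication-dependent histone mRNAs are made in S phase and end in a stem-loop rather than in a poly(A) tail, whereas the mRNAs of the 10 genes are known as polyadenylated.

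The first sequences shown are promoters, from 250 bases before to 50 bases after the transcription start, taken from RefSeq (GRCm38.p6), where 6 of the 10 genes had an entry. *Cdk1*, *Ccnb1* and *Mki67* are printed because they act or peak late in the cycle and because elements of the kind searched for are known to time such genes. Capitals mark matches on either strand. The letters are CCAAT (the CCAAT box), TTTGAA (a form of the cell cycle homology region) and TTTCGCGC or TTTGGCGC (forms of the E2F site).
Cdk1, GRCm38.p6 chr10:69352863-69353162, minus strand: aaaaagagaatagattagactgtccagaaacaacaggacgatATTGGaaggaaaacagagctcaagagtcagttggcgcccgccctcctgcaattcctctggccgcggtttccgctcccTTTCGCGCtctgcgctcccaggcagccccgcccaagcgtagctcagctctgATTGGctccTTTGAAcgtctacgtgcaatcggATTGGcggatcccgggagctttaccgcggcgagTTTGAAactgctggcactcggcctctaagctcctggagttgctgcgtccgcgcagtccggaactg
Ccnb1, GRCm38.p6 chr13:100786437-100786736, minus strand: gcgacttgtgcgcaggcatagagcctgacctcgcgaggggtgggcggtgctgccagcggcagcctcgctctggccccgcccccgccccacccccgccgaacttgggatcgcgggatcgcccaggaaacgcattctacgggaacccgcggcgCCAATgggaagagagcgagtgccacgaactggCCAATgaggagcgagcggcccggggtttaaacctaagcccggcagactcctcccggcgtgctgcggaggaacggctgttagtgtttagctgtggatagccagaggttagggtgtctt
Mki67, GRCm38.p6 chr7:135716330-135716629, minus strand: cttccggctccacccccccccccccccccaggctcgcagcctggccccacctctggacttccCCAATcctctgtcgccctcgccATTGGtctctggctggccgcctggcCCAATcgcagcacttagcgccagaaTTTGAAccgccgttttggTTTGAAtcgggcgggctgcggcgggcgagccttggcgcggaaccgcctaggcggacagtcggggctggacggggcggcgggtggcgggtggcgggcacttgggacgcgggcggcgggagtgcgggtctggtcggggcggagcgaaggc
In the *Cdk1* promoter there were 2 matches to TTTGAA, 3 to CCAAT and 1 to TTTCGCGC, the last from 131 to 124 bases before the start. *Mki67* held 2 matches to TTTGAA and 3 to CCAAT, and *Ccnb1* held 2 matches to CCAAT and 0 to TTTGAA. Of 32851 promoters in the table, 17.9% held TTTGAA, 37.4% CCAAT, 0.323% TTTCGCGC and 0.514% TTTGGCGC on either strand, so the short motifs were common and the E2F forms rare. None of the 4 motifs was found in the windows of *Ccne1* and *Cdkn1a*. There, as for TTTGAA in *Ccnb1*, this says only that these letters are absent, since other forms of the elements were not searched for. Promoters of *Ccna2*, *Ccnd1*, *Ccnd2*, *Cdkn1c* and *E2f1* were not used here.

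The second set shows what these libraries read from the genes. Each sequence is the 48 bases of mm9 at the coding position where most reads began in both libraries together, and they are printed to show what was read from the coding parts of the genes the results turn on.
Cdkn1c, mm9 chr7:150645070-150645117, minus strand: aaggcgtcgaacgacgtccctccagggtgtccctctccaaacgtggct
Ccnd2, mm9 chr6:127100630-127100677, minus strand: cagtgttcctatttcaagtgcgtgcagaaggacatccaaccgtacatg
Ccna2, mm9 chr3:36469677-36469724, minus strand: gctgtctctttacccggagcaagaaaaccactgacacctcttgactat
Ccnb1, mm9 chr13:101553476-101553523, minus strand: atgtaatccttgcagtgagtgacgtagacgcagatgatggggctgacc
Cdk1, mm9 chr10:68808835-68808882, minus strand: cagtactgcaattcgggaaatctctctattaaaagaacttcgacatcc
Mki67, mm9 chr7:142891606-142891653, minus strand: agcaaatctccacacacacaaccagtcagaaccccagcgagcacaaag
The *Cdk1* sequence began in exon 3 at codon 45 and was the start of 79 of its reads in ESCs and 77 in NPCs. At the *Ccna2* position, in exon 2, 74 and 62 reads began, and at the *Ccnb1* position, in exon 4, 113 and 69. The *Cdkn1c* position, in exon 3, was the start of 5 and 100 reads, and that of *Ccnd2*, in exon 1, of 2 and 10.

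The comparison between the libraries asks how the RNA of each gene that remained in the NPA fraction differed between ESCs and the cells derived from them. *Cdkn1c* and *Ccnd2* were more than 2-fold higher in NPCs, 0 of the 10 genes were more than 2-fold lower, and the other 8 lay within 2-fold. Among all genes, 24.6% were more than 2-fold higher in NPCs and 12.8% were more than 2-fold lower, so 2 of 10 higher is near the background. The median log2 ratio of the 10 genes was -0.09, against 0.34 for all genes, and 8 of them lay below the median gene. Relative to it, *Cdkn1c* and *Ccnd2* were more than 2-fold above and *Ccnb1* and *E2f1* more than 2-fold below, where 15.7% and 18.7% of all genes lay. In these bulk samples, fewer cells that make an RNA, less of it per cell and a different share of it left after the removal of poly(A) RNA cannot be told apart.

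**Figure D1:**
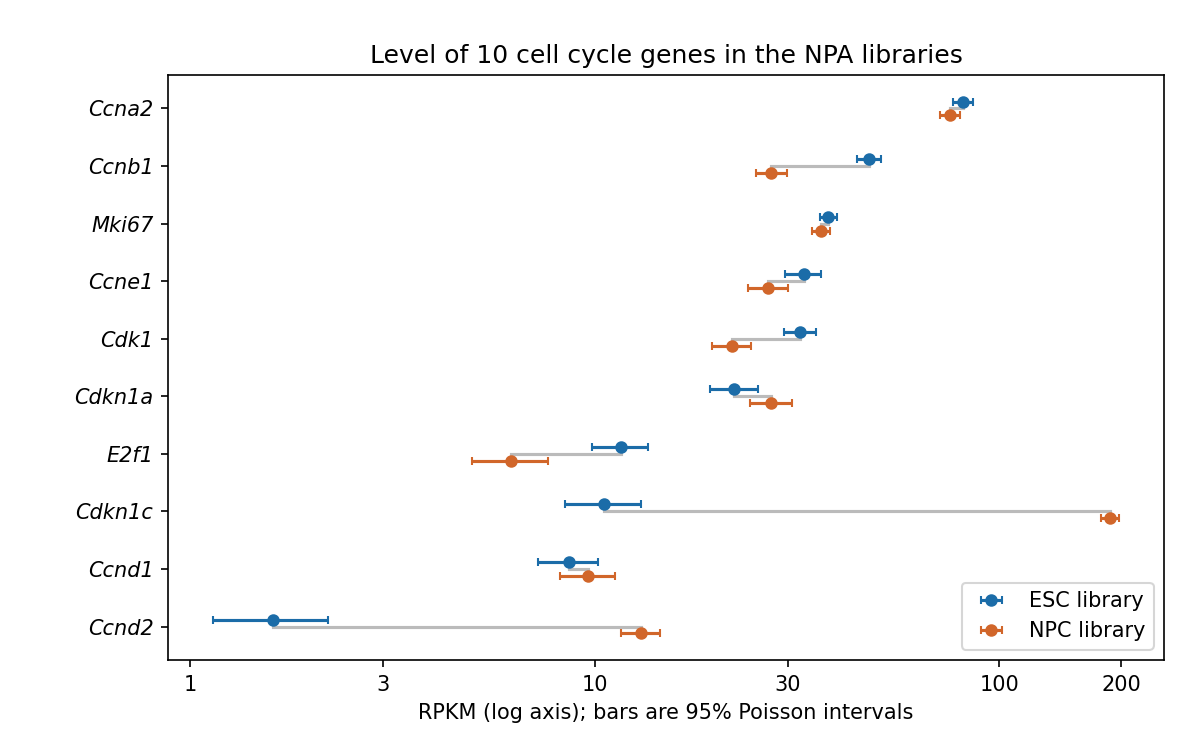
Level of the 10 genes in RPKM (RPM per 1000 bases of exon, log axis) in the ESC and NPC libraries, ordered by the ESC level. Points are single libraries, bars are 95% Poisson intervals, and the widest gaps are those of *Cdkn1c* (10.5 and 188) and *Ccnd2* (1.60 and 13.0).

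Among the D-type cyclins, which respond to growth factors in G1, *Ccnd2* was counted in 39 reads in ESCs (95% Poisson interval 27.7 to 53.3) and 326 in NPCs (292 to 363). The counts do not overlap, and the RPM was 8.11-fold higher in NPCs (5.81 to 11.6), at the 97.5th percentile of all genes. The 5 exons of the gene had ratios above 1, though that of exon 3, at 2 and 4 reads, had an interval that includes 1 (0.278 to 21.5). The last, which holds the 3′ UTR, was counted in 30 and 256 reads and the first in 2 and 26. *Ccnd1*, its close relative, was counted in 141 reads in ESCs (119 to 166) and 162 in NPCs (138 to 189). Its ratio of 1.12 (0.884 to 1.41) had an interval that includes 1. On the RPKM scale *Ccnd1* thus stood above *Ccnd2* in ESCs, at 8.61 against 1.60, and below it in NPCs, at 9.60 against 13.0.

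*Ccne1*, the cyclin E that binds Cdk2 at the entry into S phase, was counted in 373 reads in ESCs (336 to 413) and 314 in NPCs (280 to 351). The RPM in NPCs was 0.817 of that in ESCs (0.701 to 0.952). *E2f1*, an activating E2F factor, was counted in 156 reads in ESCs (132 to 182) and 86 in NPCs (68.8 to 106). Its ratio of 0.535 (0.406 to 0.701) was the lowest of the 10 genes, though still within 2-fold, and stood at the 14.4th percentile of all genes.

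*Ccna2*, the cyclin A of dividing body cells, was counted in 1220 reads in ESCs (1152 to 1290) and 1165 in NPCs (1099 to 1234), and its ratio of 0.927 (0.855 to 1.01) had an interval that includes 1. *Mki67*, the gene of the proliferation marker Ki-67 that coats mitotic chromosomes, was also close to even, with 1626 reads in ESCs (1548 to 1707), 1605 in NPCs (1527 to 1685) and a ratio of 0.958 (0.894 to 1.03). For both, the counts of the libraries overlap within counting error. Relative to the median gene their log2 ratios were -0.45 and -0.40.

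*Ccnb1*, the cyclin B that carries cells into mitosis, was counted in 857 reads in ESCs (801 to 916) and 507 in NPCs (464 to 553), and the RPM in NPCs was 0.574 of that in ESCs (0.514 to 0.642). Only 64.4% of its reads in ESCs and 57.8% in NPCs had a sequence that occurs once in mm9, so its count may hold reads of near-identical copies and is uncertain. With reads of unique sequence alone the log2 ratio went from -0.80 to -1.05, which is past 2-fold. Its kinase partner *Cdk1* was counted in 474 reads in ESCs (432 to 519) and 330 in NPCs (295 to 368), of which 98.1% and 98.2% were of unique sequence, with a ratio of 0.676 (0.585 to 0.779). By intervals that treat every read as separate, both genes were thus lower in NPCs. With each start position counted once the log2 ratio was -0.82 for *Ccnb1* and -0.77 for *Cdk1*.

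The inhibitor gene *Cdkn1c*, which is imprinted and expressed from the maternal allele, was counted in 87 reads in ESCs (69.7 to 107) and 1596 in NPCs (1519 to 1676). The RPM was 17.8-fold higher in NPCs (14.3 to 22.4), at the 99.0th percentile of all genes, and *Cdkn1c* went from the eighth of the 10 levels in ESCs to the first in NPCs. Exons 2, 3 and 4 were 12.9-fold, 24.4-fold and 19.1-fold higher, and exon 1, at 2 and 7 reads, had a ratio of 3.40 with an interval that includes 1 (0.647 to 33.5). The reads were concentrated at few positions, since the 1596 reads in NPCs began at 233 positions and 269 of them at a single one. With each start position counted once the log2 ratio was 2.17 in place of 4.15, still more than 2-fold higher. *Cdkn1a*, the inhibitor gene that p53 activates, was counted in 210 reads in ESCs (183 to 240) and 267 in NPCs (236 to 301), a ratio of 1.23 (1.03 to 1.49). The extraembryonic endoderm markers moved in the same direction as *Cdkn1c* and *Ccnd2*, 19.5-fold in sum (18.8 to 20.3), and their part in these ratios was not tested.

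**Figure D2:**
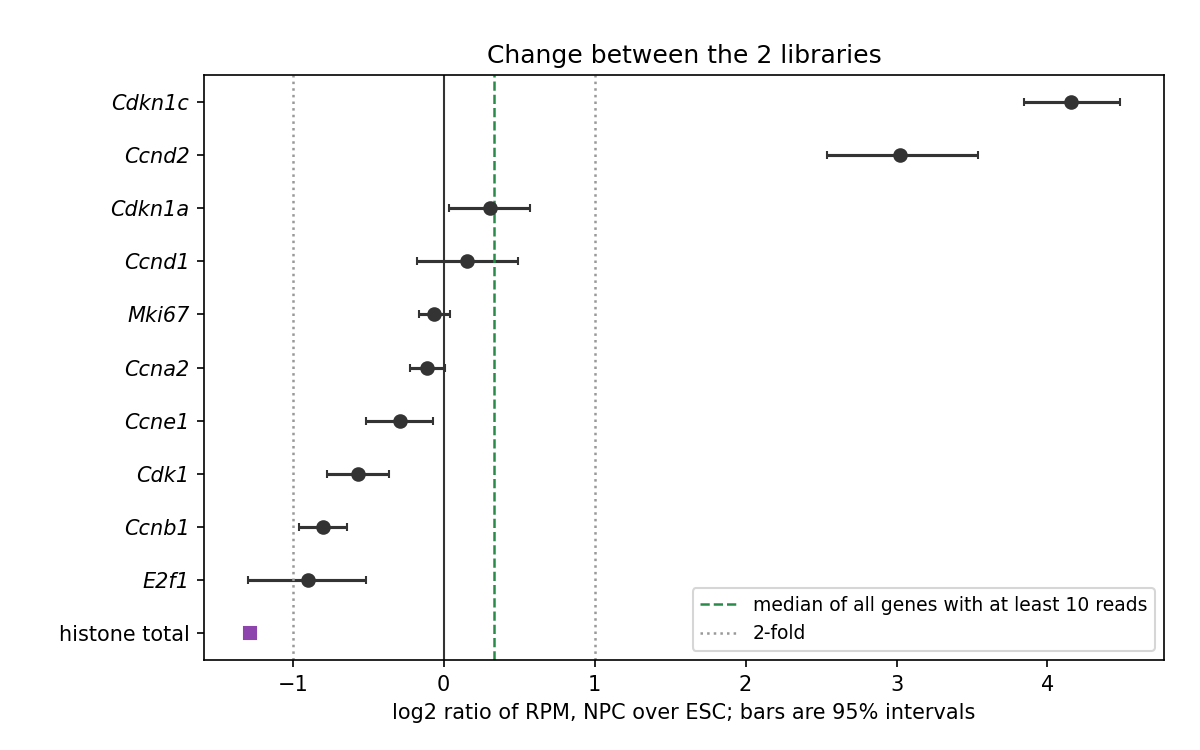
Log2 ratio of RPM (NPC over ESC) of the 10 genes and of the histone total, with 95% conditional binomial intervals, the median of all genes (dashed) and the 2-fold lines (dotted). *Cdkn1c* and *Ccnd2* lie right of 2-fold, 8 genes lie within it, and the histone total lies left of it at -1.28.

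In order of level, *Ccna2* was the highest of the 10 genes in ESCs at 81.4 RPKM (76.9 to 86.1), followed by *Ccnb1* at 47.6, *Mki67* at 37.8, *Ccne1* at 32.8, *Cdk1* at 32.2, *Cdkn1a* at 22.1, *E2f1* at 11.6, *Cdkn1c* at 10.5, *Ccnd1* at 8.61 and *Ccnd2* at 1.60. The intervals overlapped between neighbours for *Mki67* and *Ccne1*, *Ccne1* and *Cdk1*, *E2f1* and *Cdkn1c*, and *Cdkn1c* and *Ccnd1*. In NPCs *Cdkn1c* came first at 188 RPKM (179 to 197), then *Ccna2* at 75.4 and *Mki67* at 36.2. *Ccnb1*, *Cdkn1a* and *Ccne1* followed at 27.3, 27.3 and 26.8 with overlapping intervals, then *Cdk1* at 21.8, which overlapped *Ccne1*, and then *Ccnd2* at 13.0, *Ccnd1* at 9.60 and *E2f1* at 6.20. These levels divide by the union of all annotated exons of a gene. For *Ccnb1* that union is 4217 bases in 6 blocks, whereas its transcript with the longest coding part has 9 exons. Levels on single transcripts were not ranked, so the order depends on the annotation.

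The 67 replication-dependent histone genes, the S-phase mRNAs that carry no poly(A) tail, held 114000 reads in ESCs, or 2.67% of the library, and 48277 in NPCs, or 1.10%. Their total was 2.43-fold higher in ESCs (2.41 to 2.46), at a log2 ratio of -1.28, or -1.62 relative to the median gene. The 5 histone genes with the most reads were lower in NPCs to different degrees, from *Hist1h2bg* with 4397 and 1403 reads to *Hist2h2aa1* with 3082 and 2576, with *Hist1h4h*, *Hist1h1a* and *Hist2h3c1* in between. The annotated exon of *Hist2h3c1* (chr3:96049477-96052431) covers most of *Hist2h2aa1* (chr3:96049461-96050038) on the same strand. Reads in the shared part were counted for both genes, so their counts are not separate, while the histone total counted each read once. Histone genes are near-identical copies of each other, and 29.3% of their reads in ESCs and 40.8% in NPCs were of unique sequence, so single histone counts are uncertain.

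Set against this total, the 10 genes had higher log2 ratios than the histones, though the interval of *E2f1* (0.406 to 0.701) reached below the histone ratio of 0.411. With reads of unique sequence only the histone log2 ratio was -0.89, and *Ccnb1* at -1.05 and *E2f1* at -0.96 then lay below it. With each start position counted once it was -0.78, with *Ccnb1* at -0.82, *E2f1* at -0.91 and *Cdk1* at -0.77. This count shrinks genes with many reads per position most. The histone reads began at 7477 positions in ESCs and 5250 in NPCs, and those of *E2f1* at 98 and 63. It therefore cannot show whether these genes fell more than the histones. The reads of the 10 genes summed to 5183 in ESCs and 6358 in NPCs, a 1.19-fold higher RPM in NPCs (1.15 to 1.24), and without *Cdkn1c* and *Ccnd2* the sums were 5057 and 4436, a ratio of 0.852 (0.818 to 0.887). Per 1000 histone reads the 10 genes together held 45.5 reads in ESCs and 132 in NPCs, a 2.90-fold difference (2.79 to 3.01). Each of the 10 was higher in NPCs by this measure when all reads were counted, from *E2f1* at 1.37 and 1.78 and *Ccnb1* at 7.52 and 10.5, through *Mki67* at 14.3 and 33.2, to *Cdkn1c* at 0.763 and 33.1. The lower histone total in NPCs enters every one of these quotients. With each start position counted once, the difference for the 10 genes together was 1.56-fold.

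Reads on the opposite strand were rare, 14 in each library over the 10 genes, and 9 of those in ESCs and 11 of those in NPCs lay at *Ccna2*, whose exons share 512 bases with *Exosc9* on the other strand. Introns on the strand of the gene held 432 reads in ESCs, 7.69% of the reads on exons and introns (7.01 to 8.42), and 332 in NPCs, 4.96% (4.45 to 5.51). The pooled NPC share includes the 1596 exon reads of *Cdkn1c*, against 87 in ESCs, with 0 intron reads in either. By gene, the share was higher in NPCs for *Ccna2*, *Ccnd1*, *Ccne1*, *E2f1* and *Mki67*. It was lower for *Ccnb1*, *Ccnd2*, *Cdk1* and *Cdkn1a*. Except for *Cdkn1a*, the intervals of the libraries overlapped for every one of these genes, so their directions lie within counting error. *Cdkn1a* had the highest share in ESCs, 23.9% (19.0 to 29.4), against 13.9% in NPCs (10.2 to 18.2). *Ccna2* held 0.732% and 1.77%. *Cdkn1c* had 0 reads in its 770 bases of intron in either library, which with 1596 exon reads in NPCs allows a share of up to 0.231% there by the Clopper-Pearson interval.

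**Figure D3:**
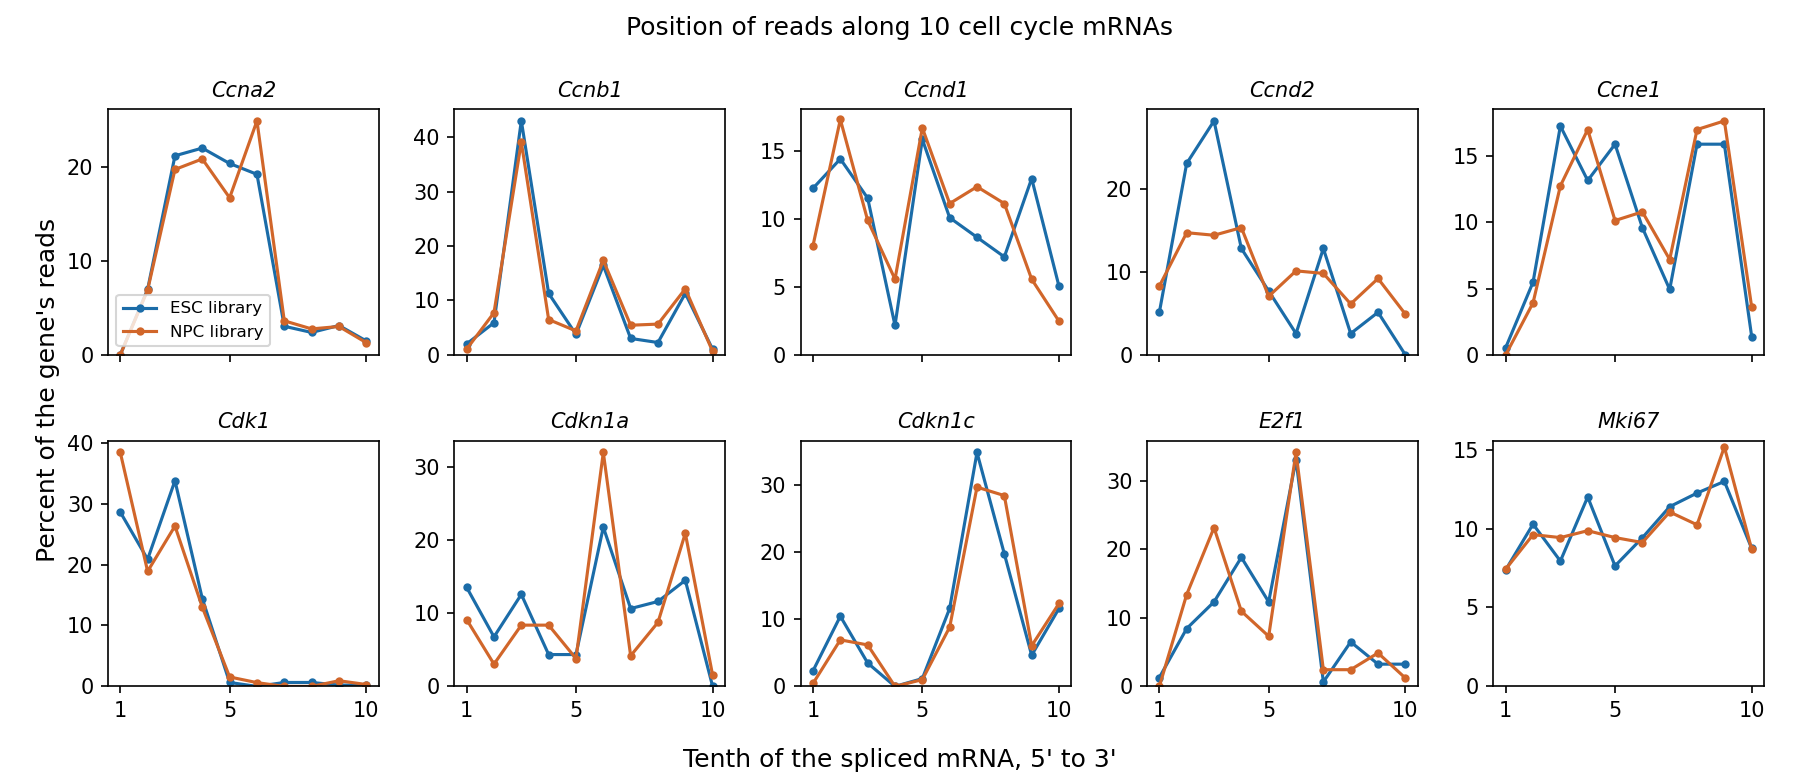
Percent of the reads of each gene in each of 10 equal parts of its spliced mRNA, from the 5′ to the 3′ end, in ESCs and NPCs. The reads of *Cdk1* lie almost wholly in the 5′ 50% of the length (98.3% and 98.1%), while those of *Cdkn1c* lie mostly outside it (17.4% and 14.6% within), and the curves of the libraries have similar shapes.

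Along the mRNAs the genes differed more from each other than the libraries did. The shares below were taken along the union of the annotated exons of each gene. On the longest transcript alone, that of *Cdk1* was 98.3% in ESCs and 98.1% in NPCs. The 5′ 50% of the length of *Cdk1* held 463 of 473 reads in ESCs (97.9%, Clopper-Pearson interval 96.1 to 99.0) and 318 of 329 in NPCs (96.7%, 94.1 to 98.3), while that of *Cdkn1c* held 15 of 86 (17.4%, 10.1 to 27.1) and 231 of 1585 (14.6%, 12.9 to 16.4). The median over 7192 coding genes in ESCs was 50.4%, and over 8091 in NPCs 47.9%. *Ccna2* stood above these medians at 66.1% and 60.8%, and *Ccnb1* at 65.4% and 57.7%, whereas *Mki67* stood near them at 45.2% and 45.8%. *Ccnd2* went from 76.9% (60.7 to 88.9) to 59.8% (54.3 to 65.2), with only 39 reads behind the first value.

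The coding part of *Cdk1* held 416 reads in ESCs over 891 bases and its 3′ UTR 44 over 1866, 19.8-fold denser per base in the coding part, and in NPCs the difference was 27.3-fold. In *Ccna2* the coding part was 4.08-fold and 3.36-fold denser, and in *Ccnb1* 3.61-fold and 2.49-fold. A denser coding part was the common case, found in 75.9% of 6154 genes in ESCs and 69.0% of 7010 in NPCs, with a median of 1.57-fold and 1.37-fold. *Cdkn1c* was the opposite in both libraries, since its coding part was 0.362 and 0.318 times as dense as its 3′ UTR, at percentiles 1.51 and 1.73 of those genes. *Cdkn1a* had 63 coding reads over 477 bases and 139 over 1332 bases of 3′ UTR in ESCs, 1.27-fold denser in the coding part. In NPCs it had 48 and 209, with a coding part 0.641 times as dense. No interval was computed for any of these density ratios. The authors removed reads that touch annotated repeats, and the part of each UTR lost to this was not computed.

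The other genes of the pathway were taken as lists. Their counts past 2-fold stand beside 24.6% of all genes more than 2-fold higher in NPCs and 12.8% more than 2-fold lower. Of 14 further cyclins, kinases and their phosphatases with at least 10 reads, 2 were more than 2-fold higher in NPCs and 0 more than 2-fold lower, with a median log2 ratio of -0.06. The higher ones were *Ccne2*, the second cyclin E, at 36 and 110 reads (2.97-fold, 2.02 to 4.45), and *Cdc25a*, a phosphatase that activates CDKs, at 107 and 238 (2.16-fold, 1.71 to 2.74). *Ccnb2*, the highest of the list in ESCs at 103 RPKM, was counted in 679 and 400 reads and resembled *Ccnb1* with a ratio of 0.572 (0.504 to 0.648). Among 6 further CDK inhibitors 0 were more than 2-fold higher, and *Cdkn2a*, at 15 and 5 reads, was more than 2-fold lower. The close relative *Cdkn1b* was counted in 158 and 122 reads, a ratio of 0.750 (0.587 to 0.955), and *Cdkn3* in 24 and 26.

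The 16 further genes of the E2F and retinoblastoma families and their partners had a median log2 ratio of 0.23, with 2 more than 2-fold higher and 2 lower. *E2f3*, an activator like *E2f1*, was counted in 67 and 243 reads (3.52-fold, 2.68 to 4.69), and *Foxm1*, a factor for mitotic genes, in 156 and 340 (2.12-fold, 1.75 to 2.57). *E2f2*, also an activator, was counted in 82 and 14 reads, a ratio of 0.166 (0.0868 to 0.294), and *Rbl2*, a retinoblastoma relative, in 50 and 21. The activating E2F genes therefore lay on both sides. *Mybl2*, which works with FoxM1 on late genes, was the highest of the list in ESCs at 91.4 RPKM and was counted in 1809 and 979 reads. Of these reads only 57.2% in ESCs and 61.1% in NPCs were of unique sequence, so its count and rank are uncertain.

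Of the 27 genes of DNA replication, 26 lay within 2-fold and the median log2 ratio was -0.01. *Mcm5*, a subunit of the replicative helicase, was counted in 1143 and 1211 reads (1.03-fold, 0.948 to 1.12), *Gins1* in 49 and 28, and *Tyms*, which makes thymidylate, in 47 and 121 (2.50-fold, 1.77 to 3.58). The 31 genes of mitosis had the lowest median of the cell cycle lists, -0.33, with 1 more than 2-fold higher, 5 more than 2-fold lower and 28 below the median gene. *Top2a*, which untangles DNA before the chromosomes part, was counted in 8120 and 2709 reads, a ratio of 0.324 (0.310 to 0.338). Of its reads 43.4% in ESCs and 68.1% in NPCs were of unique sequence, and with each start position counted once its log2 ratio was -0.80 in place of -1.63, which is within 2-fold. *Espl1*, the separase gene, was counted in 577 and 216, *Pttg1*, its inhibitor securin, in 165 and 71, *Aurkb*, a mitotic kinase, in 339 and 162, and *Prc1*, which bundles the microtubules of the midzone, in 1279 and 625. *Nuf2*, a kinetochore subunit, was counted in 38 and 82 reads. Of 12 p53 targets 11 lay within 2-fold, with a median of -0.15, where *Sesn2* was counted in 305 and 796 reads (2.53-fold) and *Trp53inp1* in 2798 and 1634. Of the 15 genes past 2-fold in these 6 lists, 9 were within it with each start position counted once, namely *Ccne2*, *Cdc25a*, *Foxm1*, *Tyms*, *Nuf2*, *Sesn2*, *Aurkb*, *Top2a* and *Prc1*.

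**Figure D4:**
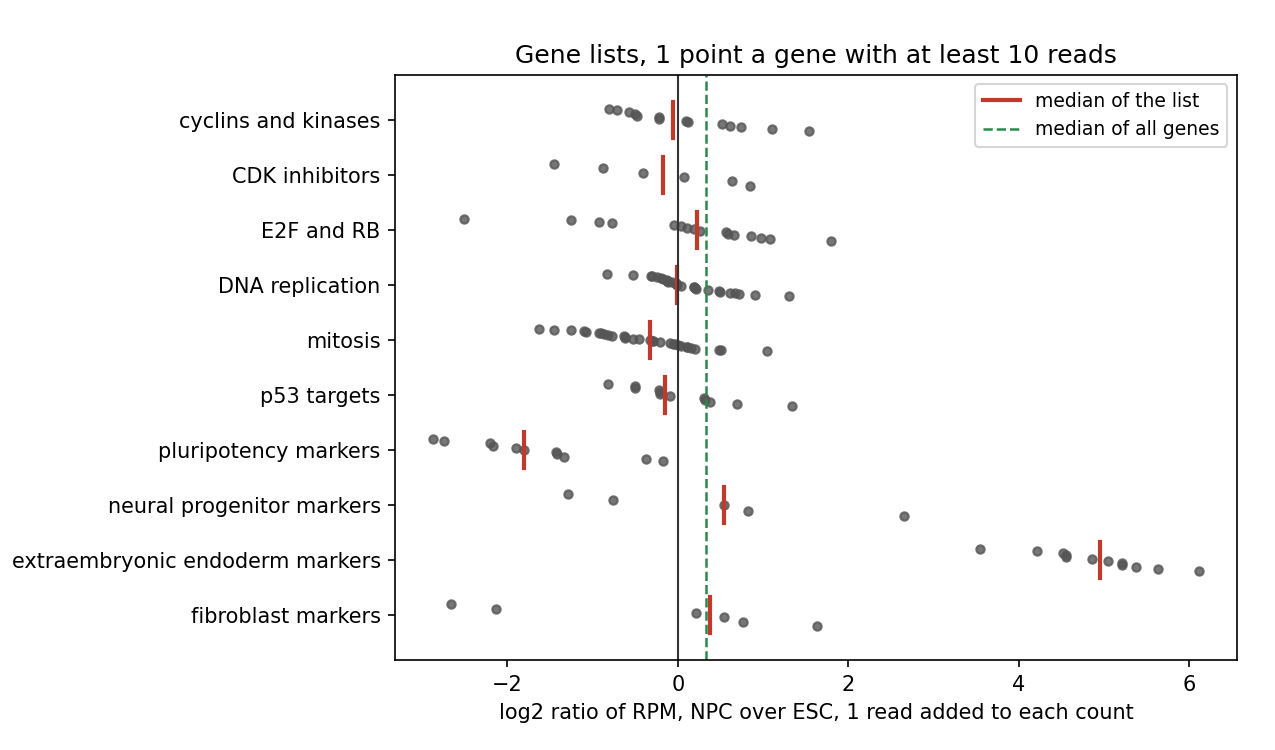
Log2 ratio of RPM (NPC over ESC, 1 read added to each count) of the genes of 10 lists with at least 10 reads, 1 point a gene, with the median of each list (red) and of all genes (dashed). The cell cycle lists have medians between -0.33 and 0.23, while the pluripotency list lies at -1.80 and the extraembryonic endoderm list at 4.95.

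Close relatives differed in their ratios. *Ccnd2* was 8.11-fold higher in NPCs with *Ccnd1* at 1.12, and *Cdkn1c* was 17.8-fold higher with *Cdkn1a* at 1.23 and *Cdkn1b* at 0.750, and the intervals of the ratios do not overlap between these relatives. The direction of *Ccnd1* and *Cdkn1a* depended on the scaling: scaled by the median of ratios their log2 ratios were -0.18 and -0.04, in place of 0.16 and 0.30. By that scaling *Ccnb1* and *E2f1* were more than 2-fold lower, at -1.14 and -1.24.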

How the data were processed

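Non-polyadenylated RNA of ESCs and NPCs was sequenced as 1 library each. The authors placed reads on mm9 using Bowtie, kept the best of several placements, removed mitochondrial, ribosomal and repeat reads, and deposited 1 line per read with its position, strand and 48 bases. The deposited files hold read positions, from which counts were made here. A read counted for a gene of GENCODE M1 when it overlapped an exon on its strand by at least 1 base. RPM and RPKM used the library totals, and RPKM the length of the union of the annotated exons of a gene.

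With 1 library per group no test was made. Counts have exact Poisson, shares Clopper-Pearson and ratios conditional binomial 95% intervals. Calls across genes took at least 10 reads, added 1 read and used 2-fold. The named genes are the 10 members, the highest and lowest ratio (at least 50 reads) and the highest ESC level of each list, and the 5 histone genes with the most reads. Other list genes (those past 2-fold and the remaining neural markers) were named after their values were seen. The members and lists were chosen with earlier results of these data known. *Sox1* of the neural list was not matched, and 1 gene of it is not reported here by itself. Counting and calls were tested on simulated data. Python 3.11.15, NumPy 2.4.6, SciPy 1.17.1, pysam 0.24.0, SAMtools 1.23.1 and matplotlib 3.10.9 were used. Alternatives are given in the closing section.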

Additional observations from a re-analysis of the deposited data

How the results depend on the processing

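No paired analysis was possible because each cell type had 1 library. *Ccnd2* and *Cdkn1c* were the 2 genes more than 2-fold higher in NPCs under all 6 alternatives tried. The number more than 2-fold lower was 2 with scaling by the median of ratios and 1 with reads of unique sequence only. The histone log2 ratio was -0.78 with each start position and strand counted once, -1.62 with scaling by the median of ratios, -1.39 with totals that leave out the 10 clusters with the most reads, and -0.89 with reads of unique sequence. The median log2 ratio of the DNA replication list was -0.22 with each start counted once and -0.35 with scaling by the median of ratios. The 10 genes per 1000 histone reads were 1.56-fold higher in NPCs with each start counted once and 2.18-fold with unique sequence. Scaling by the median of ratios changed the NPC over ESC ratio of totals from 1.03 to 1.30, which lowers every log2 ratio by the same amount. Counting each start once changed that ratio of totals to 1.21. What else moved these values was not tested. The log2 ratios of single genes moved beyond their counting intervals in 16 cases and stayed within them in 44. *Ccnd1* and *Cdkn1a* each changed sign under 2 alternatives. The other list medians, and the median 5′ share of the 10 genes in either library, stayed within their intervals. Depth limited *Ccnd2* most, with 39 reads in ESCs. For list genes, 3 alternatives were added after seeing the data. Of the 15 genes of the cell cycle and p53 lists past 2-fold, 9 were within it with each start counted once, 5 with scaling by the median of ratios and 1 with unique sequence.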

Other observations

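The reads of the 10 genes began at few positions to different degrees. The 5 positions with the most reads held 43.0% of the *Cdk1* reads in ESCs and 44.5% in NPCs, 46.0% and 37.8% of the *Cdkn1c* reads, and 32.2% and 30.0% of the *Ccnb1* reads. For *Mki67* they held 7.50% and 5.92%. The libraries were amplified by PCR and carry no molecular identifiers, so reads from the same start are not known to be separate molecules.

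Single exons of *Cdk1* differed in their ratios. Exon 3 was counted in 132 reads in ESCs and 137 in NPCs (1.01-fold, 0.788 to 1.29), exon 4 in 71 and 31 (0.424, 0.269 to 0.655) and exon 6 in 58 and 19 (0.318, 0.179 to 0.542). The intervals of exons 4 and 6 lie below that of exon 3.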
